A study of Drosophila melanogaster with 2 samples.

Results

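The cell cycle and DNA replication genes examined here are 37 genes of 18277 annotated Drosophila melanogaster genes. They were chosen by name and not filtered by a measured value, but with earlier results of these data known. They comprise 21 cyclins and other regulators of the cell cycle and 16 replication factors, and every one of the 37 was found in the dm6 annotation. Binding of Ash1 at these genes was taken from chromatin immunoprecipitation followed by sequencing (ChIP-seq) of embryos from a transgenic line that stably expresses Ash1, a trithorax group histone methyltransferase, with GFP fused to its C terminus. Both samples, biological replicates 2 and 4, belong to 1 group: whole embryos, males and females pooled, 0 to 24 h old, with antibody listed as ash1. Nothing else distinguishes them, and no untagged strain or other genotype was analysed here. The source label describes an insertion that targets ash1, and the labels do not say under which promoter the fusion is expressed or whether an untagged ash1 copy remains. Free text in the labels of both calls them input controls, which the antibody field and the peak calls go against, and they are described here as immunoprecipitated samples. Because whole embryos were used, strong binding in few cells and weak binding in many cannot be told apart.

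The authors deposited 30000 candidate regions for each replicate and for both replicates pooled, together with the 1567 pooled regions that passed their irreproducible discovery rate (IDR) threshold, called peaks below. Ranks follow the deposited signal value, with 1 the strongest. A gene has a candidate when the summit of a pooled candidate lies within 500 bp of one of its transcription start sites (TSSs), and it is bound when such a region is a peak.

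Passage through the cell cycle is driven by cyclin-dependent kinases (CDKs), which are switched on by their cyclin partners and by Cdc25 phosphatases and switched off by CDK inhibitors and by cyclin destruction. Entry into S phase is prepared by the transcription factor E2F with its partner Dp, held in check by the retinoblastoma protein, and E2F sites are known in promoters of replication genes. Origins are licensed when the origin recognition complex (ORC), with Cdt1, loads the Mcm helicase onto DNA, a step that geminin blocks. In fly embryos maternal products of these genes run the first rapid cycles, after which transcription of string sets the timing of mitosis.

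Sequences beside the summits are shown for 5 members that carry a searched motif or share a start region with another replication gene, and for 2 bound genes of the wider pathway. They are exon-free stretches within 100 bp of the summit of the strongest region of each gene, from the RefSeq copy of dm6, written 5' to 3' on the strand of the gene. Capitals mark matches, on either strand, to the E2F site (TTTCCCGC, TTTGGCGC, TTTGCCGC or TTTCGCGC), the DNA replication-related element DRE (TATCGATA), the GAGA element (GAGAG, whose matches may overlap one another), the core of the Pleiohomeotic site, PHO (GCCAT), the Zelda site (CAGGTA) and the core of promoter Motif 1 (GGTCACAC). The stretches lie at chr3R:21638555-21638651 (minus strand), chr3L:11833579-11833612 (minus), chr3R:24870817-24871017 (minus), chr3R:13964552-13964752 (plus), chr3R:8264808-8264969 (plus), chrX:15323317-15323517 (plus) and chr3R:31609816-31609961 (minus).
E2f1: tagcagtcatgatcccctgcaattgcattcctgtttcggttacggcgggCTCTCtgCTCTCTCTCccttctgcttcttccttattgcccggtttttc
CycA: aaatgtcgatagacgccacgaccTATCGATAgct
CycB3: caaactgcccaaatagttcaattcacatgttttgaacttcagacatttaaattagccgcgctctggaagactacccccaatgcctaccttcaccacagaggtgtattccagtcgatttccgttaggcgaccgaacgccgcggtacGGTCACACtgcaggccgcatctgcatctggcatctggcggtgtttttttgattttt
Orc2: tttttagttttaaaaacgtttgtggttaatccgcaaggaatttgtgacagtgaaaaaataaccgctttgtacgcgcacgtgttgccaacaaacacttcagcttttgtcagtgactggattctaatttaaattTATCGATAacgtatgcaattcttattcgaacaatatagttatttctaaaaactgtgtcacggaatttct
Mcm2: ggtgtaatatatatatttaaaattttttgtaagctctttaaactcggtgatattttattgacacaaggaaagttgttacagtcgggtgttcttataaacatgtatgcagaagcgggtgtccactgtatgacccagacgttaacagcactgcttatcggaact
Top1: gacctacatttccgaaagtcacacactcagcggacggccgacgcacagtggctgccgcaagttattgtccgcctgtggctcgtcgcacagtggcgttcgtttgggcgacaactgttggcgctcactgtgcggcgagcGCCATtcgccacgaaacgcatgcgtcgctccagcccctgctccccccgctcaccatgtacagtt
CycG: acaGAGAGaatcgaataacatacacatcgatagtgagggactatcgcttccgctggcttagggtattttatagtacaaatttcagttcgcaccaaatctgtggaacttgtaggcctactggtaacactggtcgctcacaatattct

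Beside E2f1 the printed stretch is a CT-rich tract with 4 matches to the GAGA element, and it begins 4 bp from the summit, which lies in an exon of lncRNA:CR46056. The CycA stretch, which does not reach the summit, holds a DRE centred 8 bp upstream of the TSS, and the Orc2 stretch a DRE centred 198 bp upstream of the TSS. A Motif 1 core is centred 52 bp upstream of the TSS of CycB3. The Mcm2 stretch, which lies between Mcm2 and RPA1, holds none of these letters.

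Of the 37 genes, 24 (64.9%) had a candidate at a TSS and 3 (8.11%) were bound. Over all annotated genes 41% had a candidate and 6.33% were bound, and over protein-coding genes 44.9% and 7.47%. Among genes with a candidate, 15.4% were bound over all genes and 12.5% over the members, so the bound share of the members was close to the background. The median rank of the strongest region at a TSS was 7397.5 over the 24 members and 7909.5 over the 7494 genes that had one. Members were scarce at the bottom of the list, with 1 (4.17%) at ranks 20001 to 30000 against 17.3% of genes, and 8 (33.3%) lay at ranks 5001 to 10000 against 19.8%. The median rank of the members was thus close to that of all genes.

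**Figure D1:**
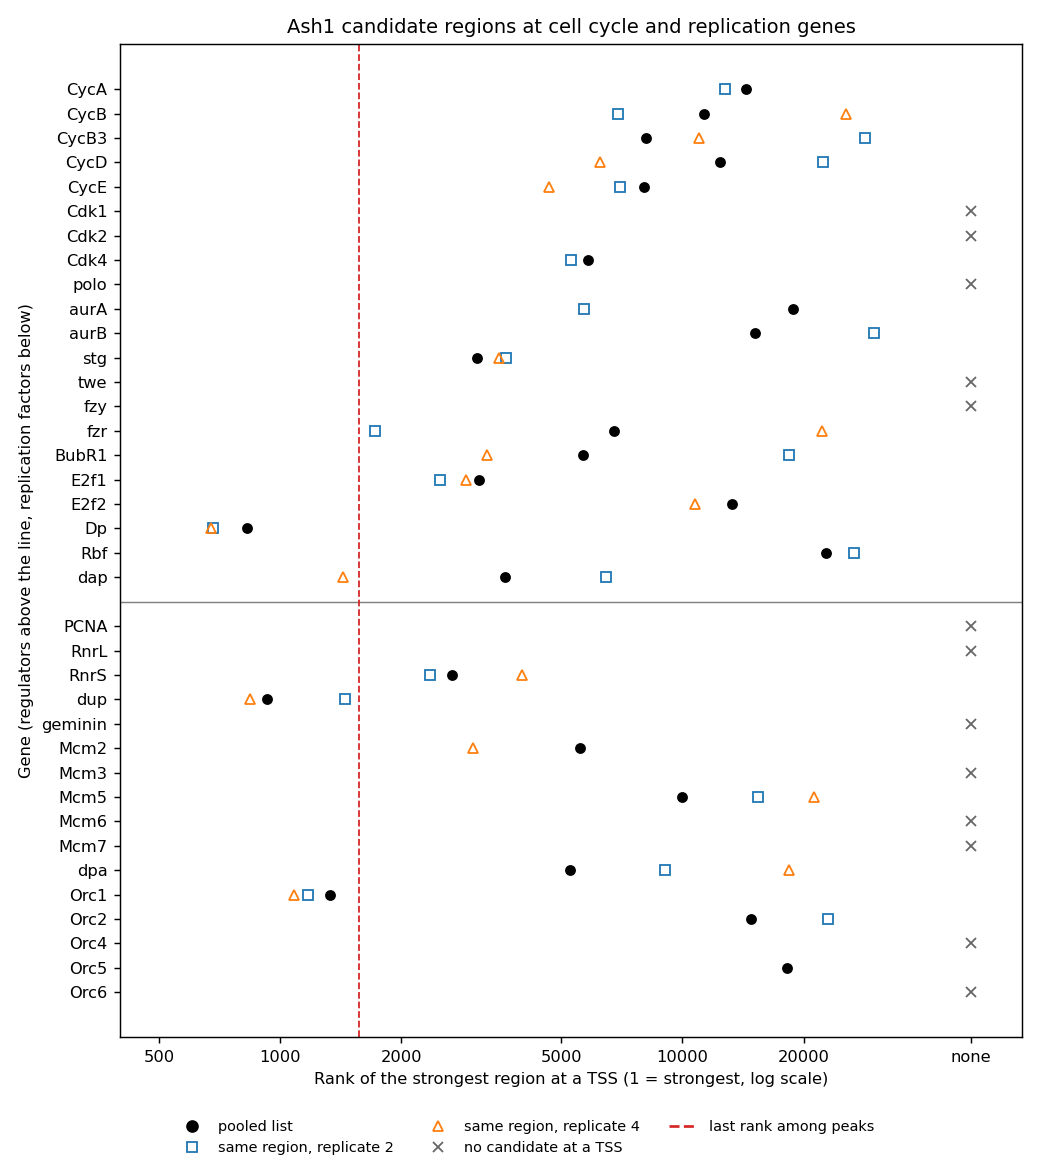
Rank of the strongest region at a TSS of each member (horizontal, log scale; 1 is the strongest), in the pooled list (filled circles) and for the same region in replicate 2 (squares) and replicate 4 (triangles), with crosses for genes without a candidate. Dp, dup and Orc1 lie left of the dashed line, the last rank among peaks (1567), in each of the 3 lists.

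The bound genes were Dp, dup and Orc1. Dp encodes the DNA-binding partner of the E2F proteins. Its strongest region (chr2R:13223174-13223509) had pooled rank 828 and signal 120.81, and its summit lay in an intron, 249 bp upstream of an internal TSS. The same region ranked 682 in replicate 2 and 672 in replicate 4. Dp was the one member with a second peak at a TSS, 397 bp downstream of that same start, at pooled rank 1158 and at ranks 1191 and 1081 in replicates 2 and 4. The first start of Dp had a candidate that did not pass, 51 bp upstream and nearest to a TSS of Fsn (rank 2130; 3532 in replicate 2 and 1490 in replicate 4), and the third a weaker one at rank 8340. Both Dp peaks were thus within the strongest 1567 of each replicate, and both flanked the middle start.

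The gene dup (double parked) encodes the fly Cdt1, which loads the Mcm helicase at origins. Its peak (chr2R:15380535-15380870) had pooled rank 925 and signal 115.53, with rank 1449 in replicate 2 and 843 in replicate 4. The summit lay 89 bp upstream of one dup start, in the 5' UTR of the longer dup transcript, and 21 bp from the TSS of SRPK, an SR protein kinase gene transcribed in the opposite direction. SRPK was the nearest gene, so this peak cannot be assigned to dup rather than to SRPK. With nearest genes alone, 2 members were bound, Dp and Orc1.

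Orc1 encodes the largest ORC subunit. Its peak (chr2R:7525663-7525998) had pooled rank 1327 and signal 99.07, with rank 1172 in replicate 2 and 1083 in replicate 4. The summit lay between genes, 115 bp upstream of the single Orc1 TSS, and no other gene had a TSS within 500 bp. Orc1 was the weakest bound member, and RnrS (rank 2669, signal 74.40) the strongest that did not pass.

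Each replicate alone had 4 members among its 1567 strongest candidates at a TSS, against 14.9% of genes with a candidate in replicate 2 and 15.7% in replicate 4. Dp, dup and Orc1 were among them in both. The fourth was E2f1 in replicate 2, through a region that ranked 1357 there and 18976 in replicate 4, and dap in replicate 4 (rank 1432, against 6467 in replicate 2). Of the 24 strongest regions of members, 15 (62.5%) had a candidate within 100 bp of their summit in both replicates, against 48.7% over all genes. A further 6 were found in replicate 2 alone and 2 in replicate 4 alone, and the Orc5 region in neither. Of the 13 members without a pooled candidate, 9 had none in either replicate.

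All of the bound members lie on chromosome arm 2R, a split that was made after the values were seen. Of the 13 members on 2R, 9 had a candidate, with a median rank of 3614, and 15 of the 24 members elsewhere had one, with a median rank of 12376. Over protein-coding genes with a candidate on 2R, 15.3% were bound, and their median rank was 7774, beside 16.7% and 7316 over all protein-coding genes with a candidate. Protein-coding genes on this arm were thus close to those of the whole genome in both values.

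**Figure D2:**
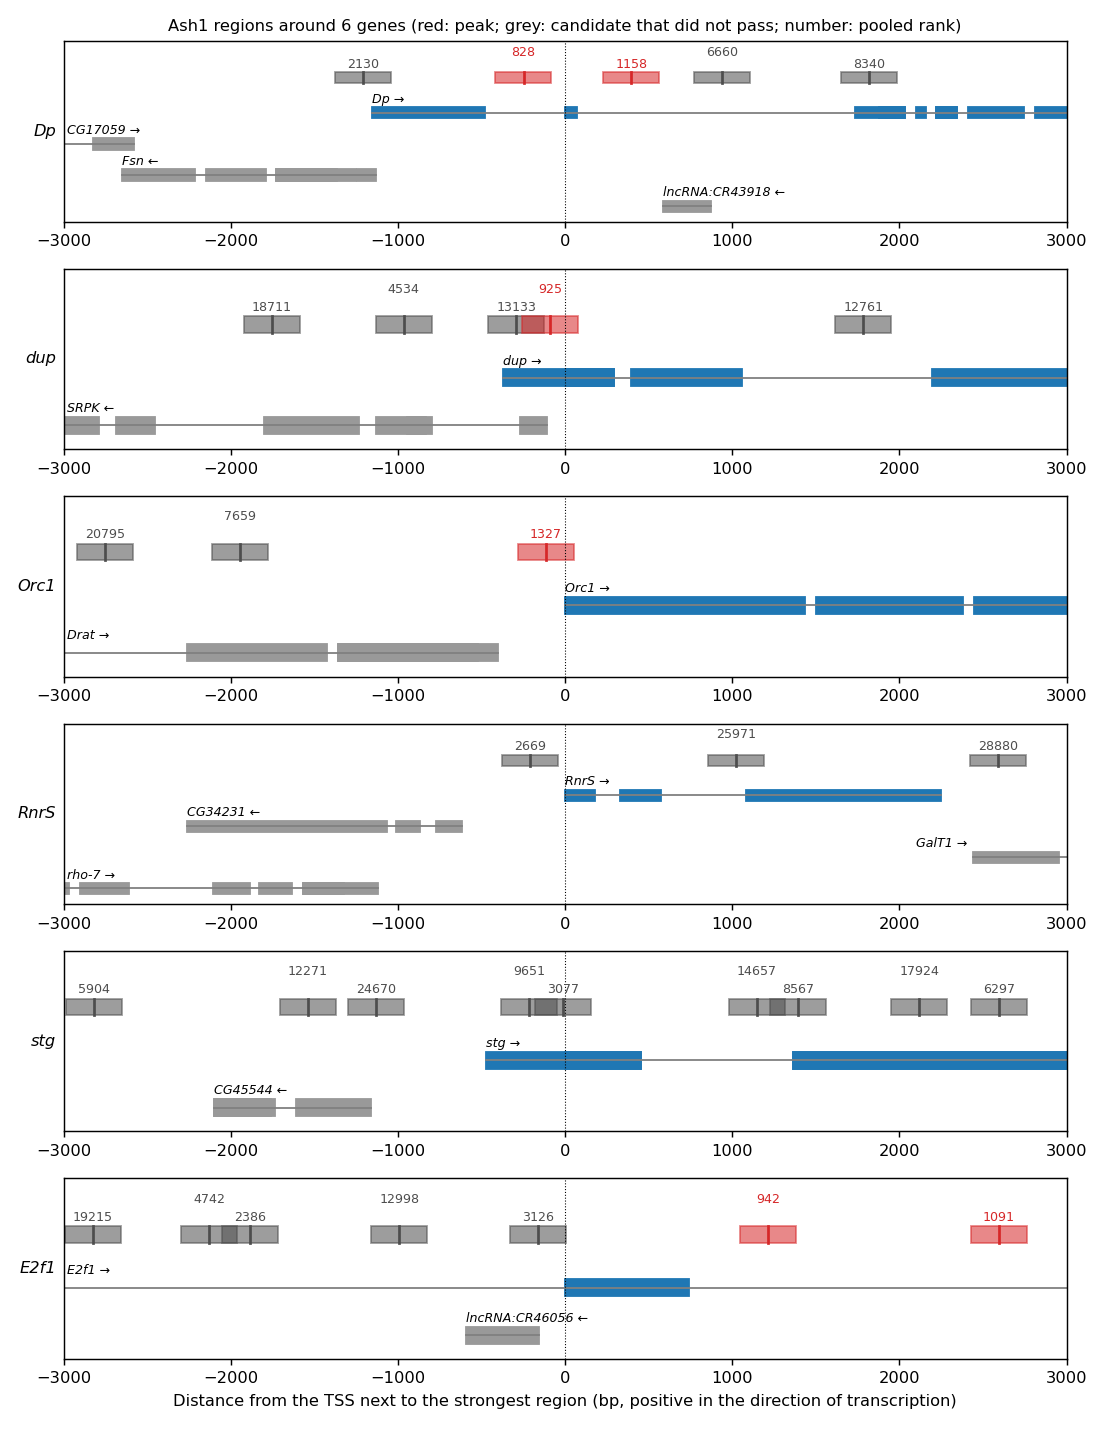
Regions around Dp, dup, Orc1, RnrS, stg and E2f1, by distance in bp from the TSS next to the strongest region (positive in the direction of transcription), with exons of the gene in blue and of its neighbours in grey. Peaks are red and candidates that did not pass are grey, each with its pooled rank. The peaks of Dp lie on both sides of its middle start, that of dup beside the start of SRPK, and those of E2f1 inside the gene.

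Cyclins bind and direct the CDKs. Every one of the 5 cyclin genes had a candidate at a TSS, none was bound, and none ranked above 8025. CycE, the cyclin of S-phase entry, had rank 8025 (6987 in replicate 2 and 4668 in replicate 4), and CycB3, a mitotic B-type cyclin, rank 8103 (28387 and 10977). CycB, the main B-type cyclin, ranked 11295 in the pooled list, 6928 in replicate 2 and 25485 in replicate 4. CycD, the G1 cyclin that promotes growth, ranked 12376 (22326 and 6236), with a summit 489 bp upstream of its TSS, near the 500 bp limit. CycA, which acts in S phase and mitosis, ranked 14421 (12757 in replicate 2, none in replicate 4). At another position near the CycA start replicate 2 had a candidate of rank 5217. In the pooled list the cyclins ranked from 8025 to 14421, and for CycB, CycB3 and CycD the replicates lay far apart in rank, so the order among the cyclins was not settled by these lists.

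The strongest peak closest to a cyclin lay outside the promoter. At 22802966 on 2R, between genes and beyond the 3' end of CycB, a peak of pooled rank 117 (signal 246.11) ranked 115 in replicate 2 and 332 in replicate 4. Its nearest TSS was that of CycB, 3337 bp away. CycE, a gene of 20570 bp, held 13 candidates, 6.32 per 10 kb against 2.24 per 10 kb over the 6 arms. Its strongest candidate within the gene or 5000 bp of it was the region at a CycE start given above. The summit of that region lay 363 bp upstream of an internal start, in a noncoding exon of lncRNA:CR44974.

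Of the 6 kinase genes, Cdk4, aurA and aurB had a candidate and none was bound. Cdk4, the partner of Cyclin D, had 3 candidates at its 5 TSSs, the strongest at rank 5827 (5273 in replicate 2, none within 100 bp in replicate 4). The stronger of 2 candidates of aurA, the centrosomal Aurora kinase, lay 5 bp from the TSS of CG3281 (rank 18847; 5697 in replicate 2, none in replicate 4). The weaker lay 9 bp from the TSS of aurA itself (rank 28373) and matched both replicates, at ranks 14933 and 12892. That of aurB, the kinase of the chromosomal passenger complex, ranked 15136 (29925 in replicate 2, none in replicate 4). At another position near the aurB start replicate 2 had a candidate of rank 13116. Cdk1, the mitotic kinase, Cdk2, the partner of Cyclin E, and polo, the founding Polo kinase gene, had none in the pooled list. At Cdk1 the nearest candidate lay 1027 bp from the TSS, at polo 3560 bp away, and at Cdk2 as far as 26048 bp away. No strongest region of a kinase gene was thus found in both replicates within 100 bp of its summit. Within 250 bp, that of Cdk4 had a candidate of rank 21547 in replicate 4. Peaks near Cdk1 belonged by distance to neighbours, with da 63 bp from the one at rank 1474 and CG5096 168 bp from the one at rank 293.

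The string gene stg encodes the Cdc25 phosphatase that activates Cdk1. Its strongest region (chr3R:29255172-29255507, rank 3077, signal 69.89) ranked 3641 in replicate 2 and 3494 in replicate 4, and its summit lay 15 bp upstream of a TSS, in the 5' UTR of the longer transcript. A second candidate, 216 bp upstream of that start, ranked 9651. Although stg is known for distant enhancers, no peak lay in the gene or within 5000 bp, where 14 candidates were found, and the nearest peak was 35139 bp away. The region at the stg start was close in rank in both replicates and below the peak threshold in each. The germline Cdc25 gene twe had no candidate in any of the 3 lists, and its nearest pooled one, 844 bp from a TSS, was the closest to the 500 bp limit among members without one.

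Among genes of cyclin destruction and the spindle checkpoint, fzr, the Cdh1-type activator of the anaphase-promoting complex, ranked 6770, with 1718 in replicate 2 and 22250 in replicate 4. BubR1, a checkpoint kinase homologue, ranked 5643, with 18406 in replicate 2 and 3275 in replicate 4. At another position near an fzr start replicate 4 had a candidate of rank 3676. The fzr region at the pooled summit was thus higher in replicate 2, that of BubR1 was higher in replicate 4, and each replicate had a candidate at both genes. The Cdc20-type activator fzy had no candidate in any list, its nearest one being 892 bp from the TSS.

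The genes of G1 to S transcription and of the CDK inhibitor (E2f1, E2f2, Dp, Rbf and dap) had a candidate in 5 of 5 cases. Cdk2, the partner of Cyclin E, is counted with the kinases and had none. Besides Dp, E2f1 (rank 3126, signal 69.34) and dap (rank 3614, signal 64.57) ranked highest. The E2f1 gene, which encodes the activating E2F and spans 40568 bp with 5 TSSs, had 5 candidates at its starts. The strongest ranked 2493 in replicate 2 and 2893 in replicate 4, and its summit lay 161 bp upstream of an internal start and 3 bp from the TSS of lncRNA:CR46056, which runs in the opposite direction. Inside the gene were 47 candidates, 11.6 per 10 kb, and 2 peaks. These lay in an intron, 1215 bp (rank 942; 2246 in replicate 2 and 840 in replicate 4) and 2593 bp (rank 1091; 2298 and 1483) from the nearest TSS, which in both cases was one of E2f1. E2f1 thus had peaks in its introns and none at a start, whereas the peaks of Dp lay at a start.

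The gene dap encodes the only Cip/Kip-type CDK inhibitor of the fly. Its summit lay 14 bp downstream of its single TSS, and the region ranked 6467 in replicate 2 and 1432 in replicate 4. E2f2, which encodes the repressive E2F, ranked 13240, with none in replicate 2 and 10746 in replicate 4. Rbf, the retinoblastoma gene of the fly, had the weakest region of all members with a candidate, at rank 22789 (26650 in replicate 2, none in replicate 4). The genes of the E2F, Dp and Rbf proteins ranged from 828 to 22789 in rank.

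Replication factors had a candidate less often than the regulators, 8 of 16 (50%) against 16 of 21 (76.2%). In the pooled list their median rank with a candidate was 5402.5, against 8064 for the regulators. Of those with a candidate, 2 of 8 (25%) were bound, against 1 of 16 (6.25%). Within each replicate's own list, over a partly different set of genes, the order of the medians was reversed. There the median best rank was 12214 for replication factors and 6697.5 for regulators in replicate 2, and 9470.5 and 4172 in replicate 4. Genes without a pooled candidate entered: geminin in both lists, Orc6 and Cdk1 in replicate 2, and PCNA in replicate 4. Dropped were Orc5 in both, Mcm2 and E2f2 in replicate 2, and Orc2, CycA, CycD, aurB and Rbf in replicate 4. The reversal thus cannot be read as a change of rank for the same genes. No test was made between the classes, because the genes were chosen by hand and with earlier results of these data known. The counts are small, and moving dup and geminin to the regulators left 1 bound gene among the replication factors and 2 among the regulators. The number of TSSs differed between the classes, and over the genome it went with the share of genes that had a candidate. Its part in the difference was not tested. Over the genome 68.7% of protein-coding genes with several TSSs and 36.3% of those with 1 had a candidate. Among the regulators 10 of 21 had several TSSs, and among the replication factors 4 of 16. Among genes with 1 TSS, 8 of 11 regulators (72.7%) and 6 of 12 replication factors (50%) had a candidate. Among those with several TSSs, 8 of 10 regulators (80%) and 2 of 4 replication factors (50%) had one.

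**Figure D3:**
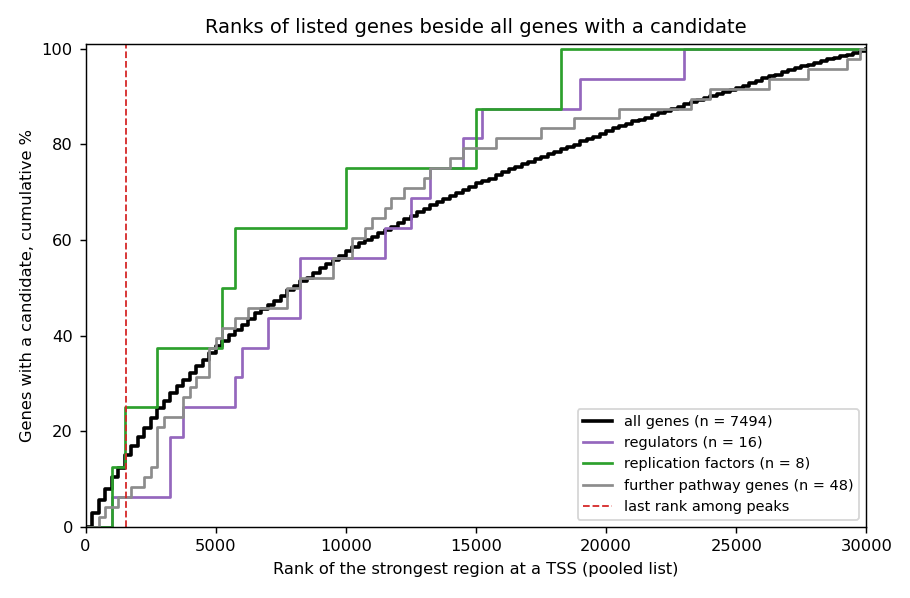
Cumulative percentage of genes with a candidate (vertical) by the rank of their strongest region at a TSS (horizontal), for all genes, the 16 regulators, the 8 replication factors and 48 further pathway genes that had one. The line of the replication factors reaches 62.5% at about rank 5559, and that of the regulators 43.8% at rank 7500.

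RnrS and RnrL encode the subunits of ribonucleotide reductase, which makes the precursors of DNA, and PCNA the sliding clamp of the polymerases. The region of RnrS ranked 2669, with 2357 in replicate 2 and 4001 in replicate 4, 208 bp upstream of its TSS and shared with CG34231. RnrL had no candidate in any list. PCNA had none in the pooled list or in replicate 2, and 1 of rank 25835 in replicate 4. The nearest peak to PCNA, 1094 bp from its TSS (rank 315; 1111 and 133 in replicates 2 and 4), lay 2 bp from the TSS of the ribosomal protein gene RpS18. The subunits of 1 enzyme, RnrS and RnrL, thus differed in whether any region was listed at their promoters. The licensing inhibitor geminin also had no pooled candidate, and ranked 17315 and 14940 in replicates 2 and 4.

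The Mcm2 to Mcm7 proteins form the ring of the replicative helicase, with dpa encoding Mcm4. Of the 6 genes, Mcm2, dpa and Mcm5 had a candidate and none was bound. Mcm2 ranked 5559, with none in replicate 2 and 3014 in replicate 4, in the region shared with RPA1, which encodes the large subunit of the single-strand binding protein. The gene dpa ranked 5246 (9041 in replicate 2 and 18406 in replicate 4) and Mcm5 10000 (15387 and 21202), the latter 38 bp from the TSS of Art1. Mcm3, Mcm6 and Mcm7 had no candidate in any list. At Mcm6 a peak of rank 147 lay 4991 bp away, in an intron of Fum1 and nearest to ND-ASHI.

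Of the ORC subunit genes, Orc1, Orc2 and Orc5 had a candidate. Orc2 ranked 14806 (22968 in replicate 2, none in replicate 4), and Orc5 18207 with no match in either replicate. Orc4 had none in any list, and Orc6 had 1 of rank 22850 in replicate 2 alone. The peak at Orc1 thus stood far above the regions of the other ORC genes. Near Orc5, a peak of rank 14 (12 in replicate 2 and 21 in replicate 4) lay 5621 bp from its TSS and 106 bp from that of CenG1A, and near Orc1 a peak of rank 547 (162 and 345) lay in an intron of Drat.

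Most peaks in the neighbourhood of members belonged by distance to other genes. Within the 37 genes or 5000 bp of them lay 24 peaks, of which 6 had their nearest TSS at the member (1 at CycB, 2 at E2f1, 2 at Dp and 1 at Orc1) and 18 at another gene, among them the ribosomal protein genes RpL10Ab beside CycA, RpLP2 beside Cdk4 and RpS18 beside PCNA. A peak in the gene or within 5000 bp was found for 14 members (37.8%) and for 21.1% of protein-coding genes, and inside the gene for 3 (8.11%) and 5.37%. Members had a median length of 2883 bp and protein-coding genes of 2164.5 bp, and the part of gene length and gene density in these shares was not tested. The shares were close for regulators and replication factors, at 38.1% and 37.5%.

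The position of regions at members was more often upstream of the TSS than over all genes. Of the 24 strongest regions, 20 (83.3%) had their summit upstream of the nearest TSS of the member, against 60.9% over all genes with a candidate and 62.3% over protein-coding ones. Exceptions were CycA, fzr, dap and Orc5. Where a gene has several TSSs, the nearest can be internal. Some upstream summits thus lay inside the gene, as in introns of CycB and Dp and in 5' UTRs of Cdk4, stg, E2f2, dup and dpa. The median distance was 108 bp, against 124 bp over all genes. In 4 cases another gene had the nearest TSS, SRPK for dup, Art1 for Mcm5, CG3281 for aurA and lncRNA:CR46056 for E2f1.

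Regions at replication factors were mostly shared with a neighbour. Of their 8 strongest regions, 7 (87.5%) lay within 500 bp of a TSS of another gene as well, with Orc1 the exception, against 4 of 16 (25%) for the regulators, 31 of 48 (64.6%) for the further pathway genes described below and 43.4% over all genes with a candidate. The neighbours were CG34231 (RnrS), SRPK (dup), RPA1 (Mcm2), Art1 (Mcm5), didum (dpa), Kots (Orc2) and Arpc1 (Orc5). By annotation alone, a TSS of another gene within 500 bp of their own was present for 5 of 16 replication factors (31.2%) and 10 of 21 regulators (47.6%), and for 37% of all genes. No rank at a shared start region can be assigned to 1 of its genes.

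The letters of the E2F site were found within 250 bp of the summit at 8 of the 24 members (33.3%), against 12.6% of the 5896 strongest regions of all genes and 13.9% of the 858 bound ones. They were found at 6 of the 8 replication factors (RnrS, dup, Mcm2, dpa, Orc1 and Orc5) and at 2 of the 16 regulators (CycB and Rbf). Within 100 bp the number was 2 members (8.33%), dup and dpa, against 5.56%. In dup the match was centred 18 bp upstream of the TSS, in Orc1 6 bp downstream, and in RnrS 34 and 50 bp upstream. The matches at RnrS, dup, Mcm2 and Orc1 lay downstream of the summit, those at dpa on both sides, and that at Orc5, 14 bp downstream of the TSS, upstream of the summit.

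**Figure D4:**
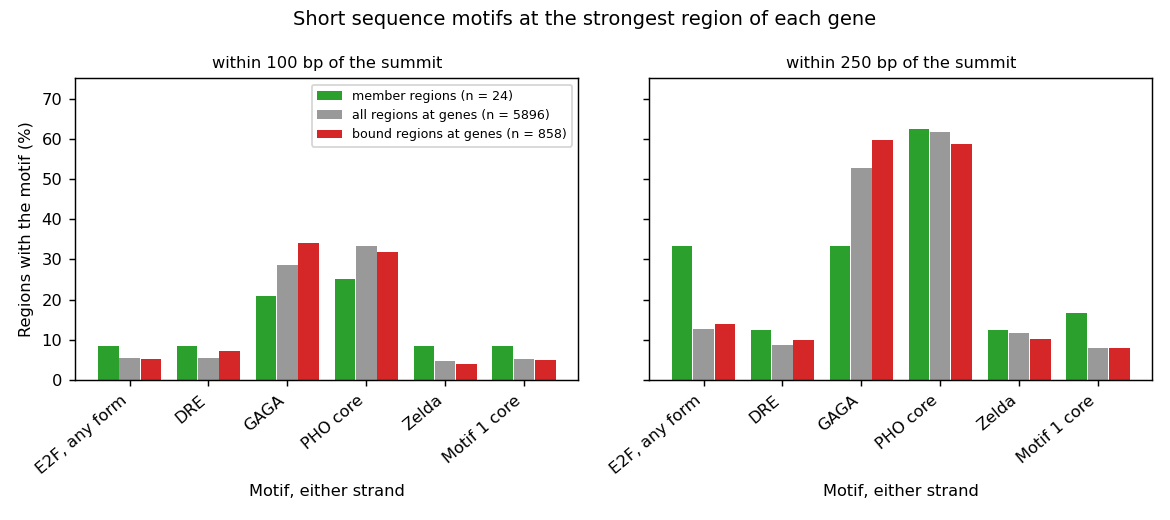
Percentage of regions with each motif on either strand within 100 bp (left) and 250 bp (right) of the summit, for the strongest regions of the 24 members (green), of all genes (grey) and of bound genes (red). The bar of the E2F site at members stands at 33.3% in the wider window beside 12.6% over all regions, and that of GAGA at 33.3% beside 52.6%.

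Matches to the GAGA element, the site of GAGA factor, were fewer at members than over all regions, 5 of 24 (20.8%) against 28.6% within 100 bp and 8 (33.3%) against 52.6% within 250 bp. Within 100 bp they lay at Cdk4, CycB, E2f1, dap and stg, all regulators. The DRE lay within 100 bp at CycA and Orc2 (8.33% against 5.51%), and within 250 bp also at BubR1. The PHO core was found at 6 members within 100 bp (25% against 33.4%) and at 15 within 250 bp (62.5% against 61.7%). The Zelda site was found at 2 (8.33% against 4.78%) and at 3 (12.5% against 11.6%), and the Motif 1 core at 2 (8.33% against 5.31%) and at 4 (16.7% against 7.99%). Regions of members had a median GC content of 42.5%, against 45.3% over all strongest regions. These matches are descriptions of letters in windows, and none was tested as a site.

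A further 90 genes of the same pathway, listed for context, had a candidate in 48 cases (53.3%), and 3 (3.33%) were bound, against 6.33% of all genes. Of those with a candidate 6.25% were bound, against 15.4% over all genes and 12.5% over the members, and these differences were not tested. Top1, DNA topoisomerase I, had the strongest region (rank 379; 715 in replicate 2 and 248 in replicate 4), 174 bp upstream of an internal TSS. Cdc7, the kinase that triggers origin firing, ranked 525 (684 and 581), and CycG ranked 1162 (1656 and 1084). The strongest unbound genes were chif, whose product activates Cdc7 (rank 1746; 4301 and 1043), the gene of a chromatin assembly factor subunit (FBgn0030054, rank 2041), and Cdk12 (rank 2413, nearer to SAK). Cdc7 thus had a peak at its start, in a region that also lay within 500 bp of a TSS of CG3226. The start region of chif was among the 1567 strongest of replicate 4 and not of replicate 2, and a peak of rank 44 (26 and 137 in replicates 2 and 4) lay in an intron 962 bp from a chif TSS, in sequence that chif shares with Hyls1. Of the 32 genes of the replication fork 2 were bound, of 14 other cyclins and CDKs 1, and of 32 genes of mitotic control and 12 of the E2F and DREAM complexes and their ubiquitin ligases none. The median rank of the 10 E2F, DREAM and ubiquitin ligase genes with a candidate was 4734, and of the 13 mitotic ones 10042.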

How the data were processed

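ChIP-seq peak lists of 2 replicates in 1 group were analysed. Per the deposited text, candidates were called on dm6 from the alignment of each replicate, and of both pooled, against 1 control alignment shared by both, and peaks came from an IDR threshold over these lists. Not given in the sources used here: aligner, caller, IDR threshold and signal scale. The deposited signal ranked regions within a list. The deposited −log10 q-value reached its maximum in 3537 pooled candidates and was not used for ranking. No counts were given, so the depth is unknown.

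Summits were compared with TSSs of Ensembl release 115 (transposable elements left out), with Python 3.11.15 and pandas 2.3.3. Replicate ranks are those of the strongest candidate within 100 bp of the pooled summit. Coordinates are 1-based. Matching steps were tested on simulated data. Members and lists were chosen with earlier results of these data known, so counts and medians stand beside those of all genes, without tests. Named are all members, the genes nearest to their regions and to nearby peaks, and bound and strongest unbound pathway genes. Genes nearest to nearby peaks were chosen after their values were seen. Of 93 pathway symbols 90 matched. Alternatives changed the distance, the threshold, the replicates, the gene assignment, the classes and the motif window. Sequence of regions on arm 2R is not shown.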

Additional observations from a re-analysis of the deposited data

How the results depend on the processing

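Of 45 alternative values, 32 kept close to the reported one. With replicate 4 left out and replicate 2 left out, genes were counted when among the 1567 strongest candidates of the replicate kept. These counts ranged from 4 to 4 for members, from 2 to 2 for regulators, from 2 to 2 for replication factors and from 5 to 6 for further pathway genes. The 2 regulators were Dp and E2f1 in replicate 2, and Dp and dap in replicate 4. CycG was counted in replicate 4 and not in replicate 2. The median rank of members with a candidate in the replicate kept ranged from 4334.5 to 6957.5. Dp, dup and Orc1 were counted in each replicate, and were bound at 250 and 1000 bp and for peaks strong in both replicates. Among the 1000 strongest candidates 1 replication factor was bound (dup), with nearest genes 1 (Orc1), and with dup and geminin among the regulators 1, with 2 regulators then bound. Within 250 bp of the summit the members with a motif were 8 for E2F (33.3% against 12.6% of all regions) and 8 for GAGA (33.3% against 52.6%). They were 15 for the PHO core (62.5% against 61.7%) and 4 for Motif 1 (16.7% against 7.99%). The longer window holds more letters at members and at all regions alike. The rank change without replicate 2 was not tested for a cause. No paired analysis was possible because there is 1 group. Depth is unknown, the control was shared by both replicates, and with 2 replicates the lists give no spread for a single gene.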
